A study of Homo sapiens with 18 samples.

Results

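NB4 is an established human cell line from acute promyelocytic leukemia, and the comparison described here is of wild-type NB4 cells after 72 h with all-trans retinoic acid (ATRA) against untreated wild-type NB4 cells. Its members are 6 of the 18 arrays of the series, 3 from cells given 1 µM ATRA and 3 from untreated cells, chosen by their titles. The titles give no culture time for the untreated cells, and no group is labelled as untreated for 72 h. Changes with ATRA and changes with 72 h in culture therefore cannot be told apart. All cells came from a purchased stock, grew in medium with fetal bovine serum and were labelled wild-type, so they stand for a single line, and the labels count 3 biological replicates per group without saying how cultures were kept apart. The other 12 arrays hold wild-type cells after 48 h of 1 µM ATRA and cells called TG2 knockout, untreated or after 48 or 72 h. They entered the fit for its estimate of the spread, and the wild-type 48 h group and the knockout groups at 0 and 72 h are set beside the main comparison at the end. RNA was read on Affymetrix whole-transcript gene arrays with 33297 probe sets, the groups of probes that report on 1 transcript. The values are signals whose scale the sources used here do not name. From their range it was taken as log2, so that a difference of 1 is a 2-fold change.

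Promyelocytes are the granulocyte precursors that fill the first, azurophil, granules. In acute promyelocytic leukemia a fusion of the PML gene with the gene of the retinoic acid receptor alpha holds cells at this stage. ATRA binds the receptor part of the fusion, which releases the block and lets the cells take on features of neutrophils and stop dividing. Neutrophils kill microbes with granule proteins and an NADPH oxidase, find them through chemoattractant receptors and leave the blood through integrins.

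The azurophil granule genes MPO and PRTN3 read high in both groups. MPO, the peroxidase of azurophil granules, read 12.2, 12.29 and 12.16 in ATRA-treated cells, against 12.68, 12.67 and 12.72 in untreated cells, which is percentile 99.4 after ATRA and 99.8 untreated among the array's probe sets. PRTN3, the serine protease proteinase 3, read 12.44, 12.61 and 12.17 in ATRA-treated cells, against 12.06, 11.96 and 11.95 in untreated cells, at percentiles 99.6 and 99.0. These are ranks of probe set signals, which do not compare transcript levels between genes. Marker lists of other blood cells were not all low, since NKG7 of the T and NK cell list averaged 11.5 after ATRA and 10.4 untreated. The array carries no probe set of RARA alone among those matched to a single gene, so the receptor behind the fusion is not described here.

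Much of what the array measures differed between the groups. At an adjusted p under 0.05 (limma, over all probe sets), 14666 probe sets (44%) were called, 7679 higher (23.1%) and 6987 lower (21%) after ATRA. Counted by gene, each through its brightest own probe set, 8107 of 18418 genes (44%) were called, 3619 higher (19.6%) and 4488 lower (24.4%). At least 2-fold calls fell on 2320 genes (12.6%), 594 higher (3.23%) and 1726 lower (9.37%). The 3 values after ATRA all lay on one side of the 3 untreated values in 63.1% of genes, so groups without overlap are common here. These shares are the background for the list counts as deposited. Several lists hold shares near them in a direction, and such a count is not a result about the list. After quantile normalization 18.5% of genes were higher and 18.7% lower, and without 1 array 2552 to 3347 genes were higher and 3876 to 4171 lower. Arrays within the untreated group correlated with r of 0.9966 to 0.9969 across probe sets, and within the ATRA group with r of 0.9717 to 0.9748. The median SD between arrays was 0.215 after ATRA and 0.0757 untreated, while the fit uses 1 spread for all groups. RNA of whole cultures was read, so a change in the share of cells of a kind and a change in RNA per cell cannot be told apart.

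Signals were also compressed after ATRA. The SD over all probe sets was 2.178 to 2.185 on the ATRA arrays, against 2.395 to 2.401 on the untreated arrays. In the dimmest of 10 equal classes of probe sets by mean signal the median change was 0.63, with 1388 called higher and 65 lower. In class 9, near the bright end, it was −0.36, with 591 higher and 1529 lower. In class 10, the brightest, it was −0.20, with 699 higher and 1381 lower. After quantile normalization, which gives every array the same distribution, these medians were 0.12, −0.06 and −0.01. The part of this shift in the calls was not tested. For that reason list counts after quantile normalization are given wherever they differ, and small changes of dim or bright genes rest on the scale as deposited.

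**Figure D1:**
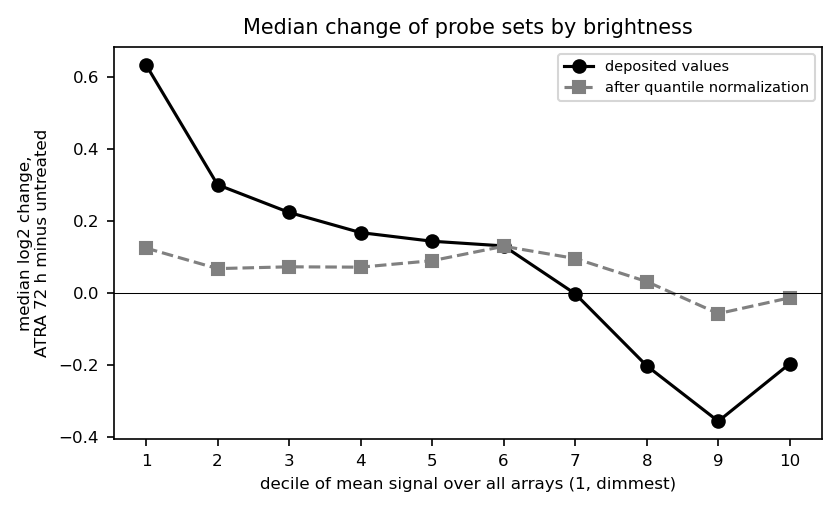
Median log2 change, ATRA 72 h minus untreated, of probe sets grouped by their mean signal (1, dimmest; 10, brightest), as deposited (circles) and after quantile normalization (squares). As deposited, the median is 0.63 in class 1, −0.36 in class 9 and −0.20 in class 10. After quantile normalization these are 0.12, −0.06 and −0.01.

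The 12 highest changes were in TGM2, BPI, ALOX5AP, CCL24, FGR, PADI2, DHRS3, FFAR2, S100A8, LAMB3, ADGRG3 and GNG2. TGM2 encodes transglutaminase 2, which crosslinks proteins, and read 12.54, 12.19 and 12.39 in ATRA-treated cells, against 6.4, 6.27 and 6.61 in untreated cells. It rose 61.7-fold (adjusted p = 4.66e-12). PADI2, an enzyme that turns arginine in proteins into citrulline, read 10.75, 10.31 and 10.85 in ATRA-treated cells, against 6.6, 6.63 and 6.51 in untreated cells, a rise of 16.6-fold (log2 change 4.06 ± 0.25, ± standard error here and below, adjusted p = 8.53e-09). FFAR2, a receptor for short-chain fatty acids, read 9.07, 7.54 and 9.19 in ATRA-treated cells, against 4.65, 4.84 and 4.65 in untreated cells. Its rise was 14.8-fold (adjusted p = 1.4e-05), and ATRA replicate 2 lay well below the other ATRA arrays.

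S100A8, a calcium-binding protein abundant in neutrophils, read 9.37, 8.2 and 9.5 in ATRA-treated cells, against 5.38, 5.19 and 5.24 in untreated cells and rose 13.5-fold. LAMB3, a chain of the basement membrane protein laminin, read 9.67, 9.14 and 10.37 in ATRA-treated cells, against 6.08, 5.93 and 6.05 in untreated cells. The adhesion-type receptor ADGRG3 read 10.72, 9.9 and 10.91 in ATRA-treated cells, against 6.8, 6.86 and 6.75 in untreated cells. Both rose 13.1-fold, and for each the highest untreated array lay below the lowest ATRA array. GNG2, a gamma subunit of heterotrimeric G proteins, read 10.42, 9.84 and 10.17 in ATRA-treated cells, against 6.54, 6.36 and 6.44 in untreated cells and rose 13-fold. A second and much dimmer probe set of GNG2 averaged 4.72 ± 0.66 after ATRA and 1.88 ± 0.18 untreated (SD, n = 3 each).

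The 12 lowest changes were in CYTL1, MS4A3, PRG2, LYZ, EBF3, HDC, PCGF6, RHEX, MAP7D3, LHFPL6, E2F5 and NQO1. CYTL1, a small secreted protein, read 6.4, 6.74 and 6.65 in ATRA-treated cells, against 11.69, 11.65 and 11.69 in untreated cells, and was 33.8-fold lower after ATRA (adjusted p = 1.91e-12). RHEX, a membrane protein of erythropoietin signalling, read 6.04, 6.43 and 6.73 in ATRA-treated cells, against 9.73, 9.72 and 9.82 in untreated cells. The microtubule-associated protein MAP7D3 read 5.77, 6.48 and 5.84 in ATRA-treated cells, against 9.3, 9.38 and 9.43 in untreated cells. These fell 10.2-fold and 10.1-fold, and every ATRA array lay at least 2 log2 units below every untreated array. E2F5, a repressor of the E2F family, read 4.78, 5.99 and 5.81 in ATRA-treated cells, against 8.72, 8.68 and 8.72 in untreated cells, with ATRA replicate 1 lowest. NQO1, a quinone reductase of the oxidative stress response, read 5.99, 6.56 and 6.13 in ATRA-treated cells, against 9.25, 9.38 and 9.31 in untreated cells and fell 8.5-fold. PCGF6, a Polycomb subunit, has 2 probe sets by the platform's table, and where their probes map was not checked. Their log2 changes of −3.39 ± 0.18 and −2.02 ± 0.18 share a direction and differ in size. All 24, chosen by the size of their changes in these same data, kept their call and direction in every alternative run.

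**Figure D2:**
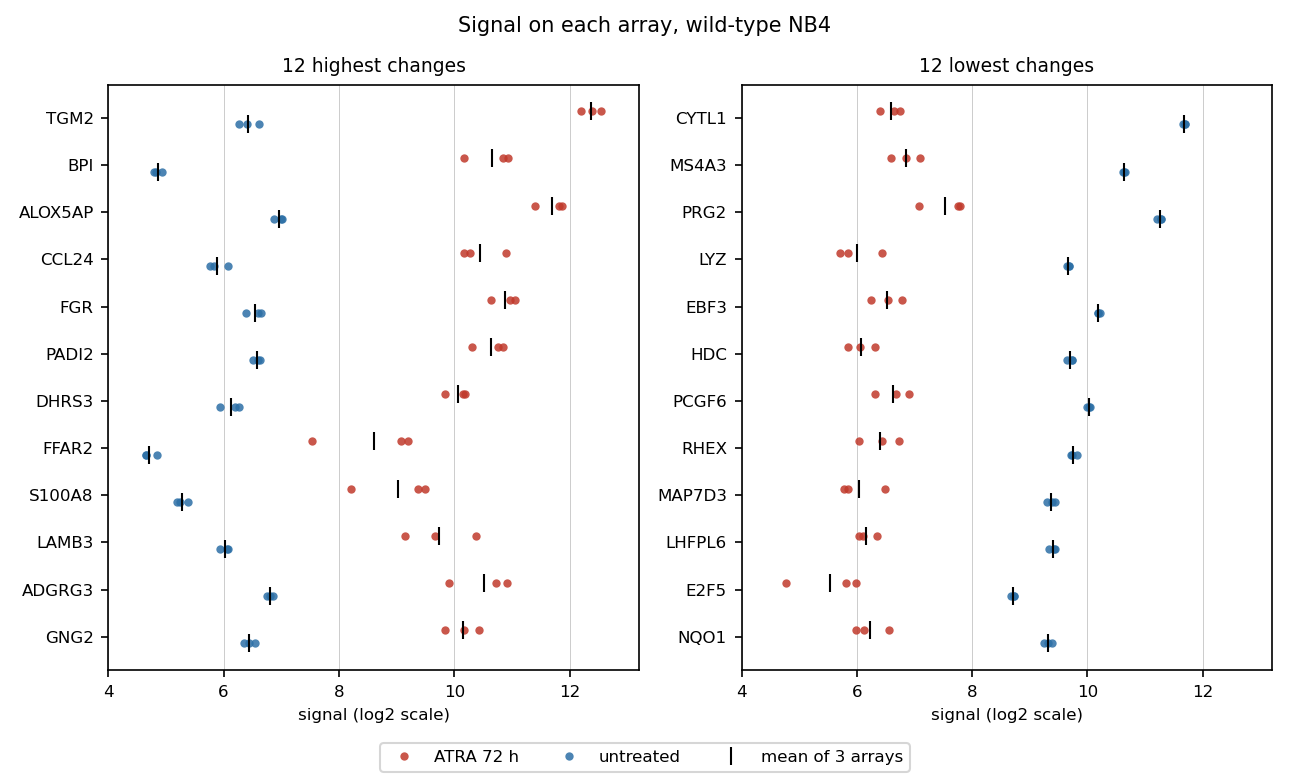
Signal (log2 scale) of the 12 highest and 12 lowest changes on each array, with ATRA 72 h (3 points, red) above untreated (3 points, blue) and black bars at the group means. The untreated arrays lie close together, while FFAR2, S100A8 and E2F5 show 1 ATRA array apart, at 7.54, 8.2 and 4.78.

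Genes that bind or process retinoids were among the responders. Retinoic acid acts through RAR and RXR receptors bound to DNA as pairs, and cells clear it with CYP26 hydroxylases. Of 14 measured genes of retinoid uptake, binding and metabolism, 6 rose and 1 fell (median log2 change 0.34, against 0.08 over all genes). A change given for a gene in brackets or after "changed by" is a log2 change, ATRA minus untreated. DHRS3, which reduces retinaldehyde back to retinol, read 10.18, 9.84 and 10.15 in ATRA-treated cells, against 5.94, 6.19 and 6.27 in untreated cells, and rose 15.2-fold. The hydroxylase CYP26A1 read 6.55, 6.81 and 6.6 in ATRA-treated cells, against 5.48, 5.24 and 5.35 in untreated cells. Its log2 change was 1.30 ± 0.12 (adjusted p = 7.83e-07), and that of CYP26B1, an enzyme of the same family, was 1.19 ± 0.18. DHRS9 (0.79), which oxidises retinol, ALDH1A2 (0.67), which makes retinoic acid, and the binding protein CRABP2 (0.39) rose less, the last with no call after quantile normalization. RDH10, which makes retinaldehyde from retinol, read 6.69, 6.88 and 6.6 in ATRA-treated cells, against 8.74, 8.71 and 8.65 in untreated cells and was the member that fell (−1.98).

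Of 11 measured receptors and cofactors, 5 rose and 3 fell (6 and 2 after quantile normalization). Without untreated replicate 2, 3 rose. RARB, the beta receptor, read 7.25, 6.11 and 6.42 in ATRA-treated cells, against 4.44, 4.62 and 4.45 in untreated cells. It rose 4.26-fold (log2 change 2.09 ± 0.33, adjusted p = 0.000112), with ATRA replicate 1 highest. RARG changed by 0.53, PPARD by 0.66 and PML by 0.38. RXRA, the common partner of these receptors, fell, with 8.1, 8.33 and 8.26 in ATRA-treated cells, against 9.41, 9.39 and 9.43 in untreated cells. PPARG, a fatty acid receptor, changed by −1.06, and the vitamin D receptor VDR by −0.37, a call not kept after quantile normalization.

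The promoters of RARB and CYP26A1 are shown because they hold the classic retinoic acid response element, a direct repeat of a short receptor site with 5 bases between its copies. The search was for GTTCA, any 6 bases and GTTCA again, which leaves the first base of each copy free, on both strands of RefSeq promoter windows (GRCh38.p14, 250 bases before to 50 after each gene start). It is in 20 of 35116 windows (0.057%), which belong to 0.0696% of the 27305 genes with a window, and in 2 of the 22 genes of the lists above that have one (9.09%). Each line below is the 150 bases before the start on the gene's strand, 5′ to 3′, with the match in capitals. RARB is at chr3:25428113-25428262, plus strand, with the match from 52 bases before the start, and CYP26A1 at chr10:93073743-93073892, plus strand, with the match on the opposite strand from 90 bases before the start.
RARB: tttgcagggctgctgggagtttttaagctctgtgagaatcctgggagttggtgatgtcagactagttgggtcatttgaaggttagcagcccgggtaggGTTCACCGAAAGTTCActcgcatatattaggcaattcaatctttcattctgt
CYP26A1: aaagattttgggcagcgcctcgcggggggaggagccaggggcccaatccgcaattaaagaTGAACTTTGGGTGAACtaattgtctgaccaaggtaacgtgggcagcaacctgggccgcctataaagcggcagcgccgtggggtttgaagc
Of the 24 genes with the largest changes, 17 have a window, and 0 of these hold this repeat or its variant with GGTCA in both places. A match describes letters only, and no match says nothing on a site elsewhere.

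Transcription factors of myeloid cells moved in both directions. Of 22 measured, 8 rose and 7 fell (5 fell after quantile normalization). CEBPE, the factor that drives late granule genes, read 9.65, 9.59 and 9.77 in ATRA-treated cells, against 7.78, 7.8 and 8 in untreated cells and rose 3.51-fold (adjusted p = 6.14e-08). CEBPB, which acts in emergency granulopoiesis, read 9.8, 9.61 and 9.88 in ATRA-treated cells, against 7.91, 7.76 and 7.94 in untreated cells. Its rise was 3.71-fold, with both groups tight. BHLHE40 changed by 1.55, GFI1B by 1.10 and ID1 by 0.96. WT1, a factor often high in leukemic blasts, read 6.99, 8.17 and 7.63 in ATRA-treated cells, against 9.49, 9.5 and 9.53 in untreated cells, and MYB, which maintains progenitors, 9.98, 10.27 and 10 in ATRA-treated cells, against 11.17, 11.26 and 11.26 in untreated cells. Both fell, by 1.91 and 1.15 on the log2 scale, as did CEBPD (−0.74), RUNX1 (−0.68) and GFI1 (−0.66), the last with no call after quantile normalization.

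In the MYC and MAX network, whose members compete for the same DNA sites, 2 of 11 rose and 3 fell. Both shares are near those over all genes, 19.6% higher and 24.4% lower. MYC, which drives growth and ribosome production, read 10.14, 10.7 and 10.3 in ATRA-treated cells, against 11.41, 11.47 and 11.41 in untreated cells. It fell by 1.05 on the log2 scale (± 0.16, adjusted p = 9.55e-05), and its partner MAX by 1.10, with 8.06, 8.25 and 8.26 in ATRA-treated cells, against 9.25, 9.35 and 9.26 in untreated cells. MLX, a related partner, changed by −0.60. The repressor MXD4 rose (0.62) and so did MYCL (0.53), 1 of them without ATRA replicate 2 or untreated replicate 3. MXD1, a repressor of the same group, read 9.14, 8.26 and 8.93 in ATRA-treated cells, against 8.53, 8.63 and 8.63 in untreated cells, with no call.

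Most mitosis genes fell, and genes of cell cycle entry and replication changed in part. Of 20 measured G1 cyclins, kinases, E2F factors and inhibitors, 5 rose and 10 fell (4 and 8 after quantile normalization). The share of rises is near the 19.6% over all genes, and the 5 that rose are all inhibitors. CDKN1B, another inhibitor, named after its value was seen, fell (−0.51). CDKN2D, an inhibitor of CDK4 and CDK6, read 8.85, 8.65 and 8.72 in ATRA-treated cells, against 7.39, 7.29 and 7.26 in untreated cells, and rose 2.69-fold (adjusted p = 1.22e-07). CDKN2B changed by 0.79, CDKN1C by 0.60, CDKN2A by 0.55 and CDKN1A by 0.33. Without ATRA replicate 1 or any 1 untreated array, 3 rose, and after quantile normalization CDKN2A and CDKN1A were not called. CDK6 itself read 6.1, 6.63 and 6.82 in ATRA-treated cells, against 8.41, 8.53 and 8.49 in untreated cells, and CDK4 10.16, 10.44 and 10.18 in ATRA-treated cells, against 11.59, 11.58 and 11.58 in untreated cells. The E-type cyclin CCNE2, which starts replication, read 6.08, 6.5 and 5.7 in ATRA-treated cells, against 8.59, 8.6 and 8.65 in untreated cells and was 5.74-fold lower. CCNE1 changed by −1.22, with ATRA replicate 3 lowest, and E2F8 by −1.61.

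Of 23 measured mitosis genes, 0 rose and 20 fell (17 after quantile normalization), with a median of −0.90. CENPE, the motor that moves chromosomes at kinetochores, read 6.44, 6.62 and 6.15 in ATRA-treated cells, against 8.22, 8.28 and 8.31 in untreated cells. PLK4, the kinase that starts centriole copying, changed by −1.37. Of 27 replication genes, 15 fell and 1 rose (11 and 3 after quantile normalization), with a median of −0.61. GINS2, a subunit of the replicative helicase, read 8, 8.45 and 8.1 in ATRA-treated cells, against 10.71, 10.68 and 10.76 in untreated cells and was 5.79-fold lower (adjusted p = 1.46e-06). MCM10 (−1.20), GINS1 (−1.19) and MCM3 (−1.13), which help build the same helicase, fell as well. CDT1, which loads the helicase and is itself degraded in each cycle, was the member that rose, with 9.46, 9.44 and 9.31 in ATRA-treated cells, against 8.76, 8.71 and 8.77 in untreated cells.

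In the BCL2 family, whose members set the threshold of apoptosis, 8 of 15 genes rose and 2 fell (10 and 2 after quantile normalization). BCL2, the founding survival protein, read 6.27, 6.47 and 6.19 in ATRA-treated cells, against 8.27, 8.36 and 8.34 in untreated cells, and was 4.04-fold lower (adjusted p = 5.37e-09). BID, which carries the death signal to mitochondria, read 8.64, 8.66 and 8.68 in ATRA-treated cells, against 9.94, 9.94 and 10.13 in untreated cells. The survival protein BCL2A1 and the death activator BMF each changed by 1.04, BBC3 by 0.52 and BCL2L1 by 0.50. Rises of BAD, BAK1, BOK and HRK, which favour death, were 0.37 to 0.50. MCL1, on which neutrophils depend, changed by 0.32 ± 0.18 and was called higher only after quantile normalization. The number that rose was 5 without ATRA replicate 2, 4 without replicate 3, and 5, 4 and 5 without untreated replicate 1, 2 or 3.

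Azurophil granule genes split between both directions. Of 13 measured, 7 rose and 5 fell. BPI, which kills Gram-negative bacteria, rose 55.6-fold. SERPINB1, an inhibitor of the granule's proteases, read 10.68, 10.07 and 10.82 in ATRA-treated cells, against 7.47, 7.52 and 7.55 in untreated cells and rose 8.06-fold. DEFA4, a defensin, read 10.82, 10.76 and 10.28 in ATRA-treated cells, against 7.89, 7.88 and 7.85 in untreated cells. It rose 6.71-fold (adjusted p = 2.89e-07), and AZU1, an inactive member of the protease family that kills bacteria, rose 2.19-fold. The proteases PRTN3 (0.42) and ELANE (0.34) and the proteoglycan SRGN (0.26) rose slightly. CTSG, another protease of the granule, read 6.99, 7.36 and 6.95 in ATRA-treated cells, against 9.55, 9.57 and 9.63 in untreated cells, and was 5.59-fold lower. LYZ, the lysozyme gene, was 12.7-fold lower, RNASE2 2.9-fold and PRSS57 2.01-fold. MPO fell by 0.47 on the log2 scale, while CTSC, which activates the proteases, was not called (−0.20).

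Specific and gelatinase granules form later than azurophil granules. Of their 18 measured proteins, 7 rose and 4 fell (6 and 4 after quantile normalization). The share of falls is near the 24.4% over all genes. MMP8, the neutrophil collagenase, read 6.32, 5.16 and 5.65 in ATRA-treated cells, against 3.25, 3.73 and 3.56 in untreated cells, and rose 4.58-fold from a dim signal (adjusted p = 2.37e-05). CRISP3 read 8.28, 5.05 and 6.3 in ATRA-treated cells, against 4.63, 4.56 and 4.33 in untreated cells. Its ATRA arrays spread over more than 3 log2 units, with replicate 2 lowest (log2 change 2.04 ± 0.51). OLFM4 changed by 1.16 ± 0.39 and lost its call after quantile normalization. MMP9, the gelatinase, read 7.13, 6.24 and 7.16 in ATRA-treated cells, against 9.98, 10.05 and 10.02 in untreated cells and was 9.02-fold lower (adjusted p = 4.14e-07). STOM (−0.82), PTX3 (−0.98) and TCN1 (−0.67) fell too. LTF, which encodes lactoferrin and defines the specific granule, read 5.7, 6.23 and 6.3 in ATRA-treated cells, against 5.33, 5.45 and 5.63 in untreated cells, a change of 0.61 ± 0.18. CAMP, the cathelicidin, read 6.3, 6.93 and 6.8 in ATRA-treated cells, against 6.4, 6.17 and 6.2 in untreated cells, with no call.

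The oxidase makes superoxide from a membrane pair, CYBB and CYBA, and cytosolic subunits. Of 11 subunits and partners, 5 rose and 1 fell (4 and 0 after quantile normalization). CYBA read 9.9, 9.8 and 9.78 in ATRA-treated cells, against 8.19, 8.24 and 8.2 in untreated cells and rose 3.07-fold (adjusted p = 2.4e-08). CYBB, its partner, read 12.3, 11.75 and 12.35 in ATRA-treated cells, against 10.79, 10.75 and 10.78 in untreated cells, a rise of 2.57-fold. The GTPase RAC2, which switches the complex on, changed by 0.62 and its activator VAV1 by 0.54. NCF4, a cytosolic subunit, read 8.95, 8.34 and 8.59 in ATRA-treated cells, against 9.45, 9.44 and 9.42 in untreated cells and fell, with no call after quantile normalization. NOX1, the catalytic chain of a related oxidase, changed by 0.52 from a dim signal, with no call after quantile normalization.

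**Figure D3:**
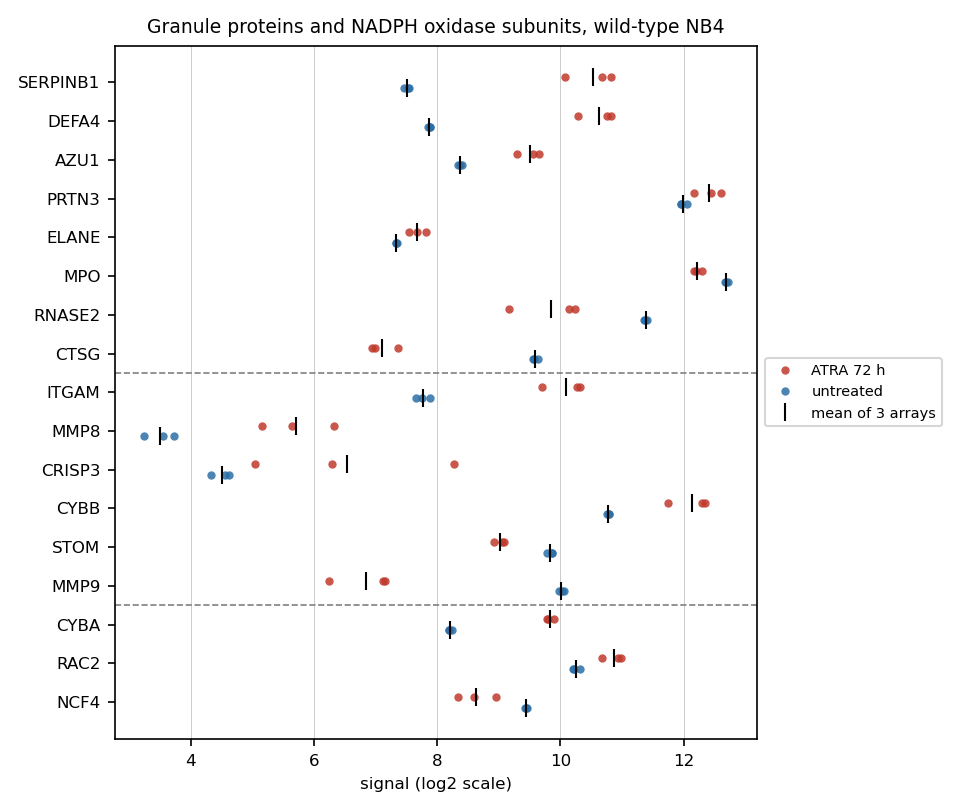
Signal (log2 scale) on each array of azurophil granule proteins (top), specific and gelatinase granule proteins (middle) and oxidase subunits (bottom), with ATRA 72 h (red) above untreated (blue) and black bars at group means. Within a granule some genes are higher and others lower after ATRA, such as SERPINB1 (3.01) against CTSG (−2.48) and MMP8 (2.20) against MMP9 (−3.17).

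Of 11 chemoattractant receptors, 5 rose and 1 fell (3 rose without ATRA replicate 3). CXCR2, a receptor of neutrophil chemokines, read 7.58, 7.36 and 7.34 in ATRA-treated cells, against 5.32, 5.45 and 5.22 in untreated cells. It rose 4.28-fold (adjusted p = 1.04e-08), while CXCR1, the other such receptor, read 4.55, 4.5 and 4.34 in ATRA-treated cells, against 4.56, 4.42 and 4.38 in untreated cells with no call. CXCR4, which holds neutrophils in bone marrow, changed by 1.30 ± 0.19. The formyl peptide receptors FPR1 and FPR2 both changed by 0.90, and the platelet-activating factor receptor PTAFR by 0.48. C5AR1, a complement receptor, read 8.1, 7.16 and 8.58 in ATRA-treated cells, against 7, 6.93 and 6.94 in untreated cells, with no call. P2RY2, a receptor for extracellular nucleotides, read 8.77, 9.13 and 8.89 in ATRA-treated cells, against 11.04, 11.02 and 10.95 in untreated cells and was 4.21-fold lower.

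Receptors of cytokines and of microbes changed in part. Of 25 cytokine receptors, 8 rose and 2 fell (1 after quantile normalization, and also without ATRA replicate 2 or any 1 untreated array). CSF3R, through which granulocyte colony-stimulating factor acts, read 10.25, 9.77 and 10.07 in ATRA-treated cells, against 7.72, 7.66 and 7.73 in untreated cells and rose 5.02-fold (adjusted p = 3.44e-07). IL10RA read 7.88, 6.51 and 8.1 in ATRA-treated cells, against 5.61, 5.69 and 5.64 in untreated cells, and rose 3.61-fold with replicate 2 lowest. IL10RB (1.34), its signalling partner, the interferon gamma receptor IFNGR1 (1.56) and CSF1R (0.79) rose too. IL17RA read 7.51, 7.47 and 7.98 in ATRA-treated cells, against 9.74, 9.74 and 9.78 in untreated cells, and was 4.29-fold lower.

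Of 16 Toll-like receptors and adaptors, 6 rose and 3 fell (4 and 2 after quantile normalization). Without ATRA replicate 3 or untreated replicate 1 or 3, 3 rose. TLR4, the receptor of bacterial lipopolysaccharide, changed by 0.85 ± 0.22 and its co-receptor CD14 by 0.51 ± 0.14. IRAK1, a kinase of the pathway, rose (0.88), and IRAK3, which inhibits the pathway, read 7.63, 7.58 and 7.69 in ATRA-treated cells, against 9.46, 9.46 and 9.39 in untreated cells and was 3.49-fold lower. TRAF6 fell (−0.91). TLR1 read 6.07, 4.81 and 6.28 in ATRA-treated cells, against 4.58, 4.37 and 4.56 in untreated cells and TLR3 6.33, 4.84 and 6.39 in ATRA-treated cells, against 4.82, 4.88 and 5.14 in untreated cells. In both ATRA replicate 2 lay near the untreated arrays, and both lost their calls after quantile normalization.

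Of 7 Fc receptors, 3 rose and 1 fell, and after quantile normalization 1 rose and 0 fell. The one that rose in both was FCGRT, which recycles immunoglobulin G, with 8.81, 8.48 and 8.54 in ATRA-treated cells, against 7.29, 7.27 and 7.17 in untreated cells. FCGR2A, an activating receptor, read 6.12, 5.47 and 6.41 in ATRA-treated cells, against 7.24, 7.2 and 7.29 in untreated cells, and fell only as deposited. Without ATRA replicate 1 or untreated replicate 1 or 2, 1 rose, and leaving out any 1 of the 6 arrays other than ATRA replicate 3 ended the call of FCGR2A. Of 20 lectin and immunoglobulin-like receptors, 7 rose and 1 fell (5 and 3 after quantile normalization, and 3 fell without ATRA replicate 1). LILRA5 changed by 1.98 ± 0.21, LILRB2 by 1.23 ± 0.19 and SIGLEC10 by 0.86, whereas CLEC5A, a lectin that activates myeloid cells, read 4.59, 4.93 and 5.23 in ATRA-treated cells, against 6.99, 6.68 and 6.88 in untreated cells and was 3.82-fold lower.

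Signalling behind these receptors runs through Src family kinases and adaptors with tyrosine activation motifs. Of 17 such genes 8 rose and 5 fell. The kinase FGR rose 20.3-fold, the inhibitory receptor CD300A 6.39-fold and the adaptor chain FCER1G 3.87-fold. FCER1G read 9.74, 8.45 and 9.83 in ATRA-treated cells, against 7.34, 7.49 and 7.33 in untreated cells, with ATRA replicate 2 lowest. CSK, the kinase that holds Src kinases inactive, read 10.19, 10.11 and 10.15 in ATRA-treated cells, against 8.99, 8.95 and 9.06 in untreated cells, and rose 2.22-fold (adjusted p = 3.11e-08). FYN, another Src kinase, read 5.23, 5.59 and 6.1 in ATRA-treated cells, against 7.27, 6.92 and 7.2 in untreated cells and was 2.81-fold lower, and YES1 (−0.67) and TEC (−0.95) fell as well.

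Integrins and their partners were mostly higher. Of 23 integrins, selectins and their ligands, 13 rose and 1 fell (14 and 0 after quantile normalization), with a median of 0.77. ICAM1, the ligand of leukocyte integrins, read 12.03, 11.41 and 12.26 in ATRA-treated cells, against 8.46, 8.38 and 8.4 in untreated cells, and rose 11.2-fold (adjusted p = 1.96e-05). The integrin chain ITGB7 read 9.52, 9.32 and 9.08 in ATRA-treated cells, against 6.61, 6.6 and 6.74 in untreated cells. ITGAM and ITGAX, the alpha chains of complement-binding integrins, rose 5-fold and 4.94-fold. SELP, a selectin known from platelets and endothelium, read 7.3, 7.01 and 7.46 in ATRA-treated cells, against 5.06, 5.06 and 4.93 in untreated cells and rose 4.72-fold. ITGA5, part of the fibronectin receptor, fell (−0.88), with no call after quantile normalization or without ATRA replicate 1 or 3.

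Of 24 actin and focal adhesion regulators, 10 rose and 2 fell (12 and 1 after quantile normalization). PXN, the focal adhesion scaffold paxillin, read 9.08, 8.77 and 8.43 in ATRA-treated cells, against 6.46, 6.56 and 6.39 in untreated cells. It rose 4.89-fold (adjusted p = 8.77e-08). FERMT3, the kindlin of blood cells that activates integrins, read 11.3, 11.04 and 11.27 in ATRA-treated cells, against 9.84, 9.89 and 9.95 in untreated cells, and MYO1F, a myosin of neutrophils, 11.54, 11.37 and 11.47 in ATRA-treated cells, against 9.96, 10.07 and 10.13 in untreated cells. WAS, which starts actin branching, changed by 1.00. ARPC1B, a subunit of the branching complex, fell (−0.36), and ZYX fell (−0.23) only as deposited. The number that fell was 1 without ATRA replicate 2 or 3 or any 1 untreated array.

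Lipid mediators are made from arachidonic acid, and 1 of the 3 largest rises was in their pathway. ALOX5AP, the protein that hands arachidonic acid to the lipoxygenase ALOX5, rose 26.5-fold, and 6 of 17 genes of leukotriene and prostanoid synthesis rose in all while 1 fell (5 and 2 after quantile normalization). PTGES, which makes prostaglandin E, read 9.63, 8.42 and 9.6 in ATRA-treated cells, against 6.79, 6.78 and 6.72 in untreated cells. CYP4F3, which inactivates leukotriene B in neutrophils, read 8.04, 6.62 and 7.51 in ATRA-treated cells, against 5.08, 5.16 and 5.35 in untreated cells. Both rose (5.48-fold and 4.57-fold), with ATRA replicate 2 lowest in each. The cyclooxygenase PTGS1 rose 4.56-fold and the thromboxane synthase TBXAS1 1.77-fold. PLA2G4A, which frees arachidonic acid from membranes, read 5.98, 6.1 and 6.13 in ATRA-treated cells, against 7.26, 7.29 and 7.32 in untreated cells and was 2.33-fold lower.

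Among calcium-binding families, 5 of 17 S100 genes rose and 1 fell (3 and 1 after quantile normalization). S100A9, the partner of S100A8, read 8.54, 7.66 and 8.81 in ATRA-treated cells, against 6.89, 6.92 and 6.8 in untreated cells, a rise of 2.76-fold. S100A10, which binds annexin A2, read 9.23, 9.34 and 8.81 in ATRA-treated cells, against 10.82, 10.71 and 10.74 in untreated cells and was 3.1-fold lower. S100A5, S100Z and S100A6 rose by 0.40 to 0.65 on the log2 scale, and none was called after quantile normalization. The number that rose was 2 without ATRA replicate 2 or untreated replicate 2, and 3 without replicate 3 of either group.

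Of 11 annexins, which bind membranes with calcium, 5 rose and 5 fell (3 and 4 after quantile normalization). ANXA5 read 11.32, 10.71 and 11.11 in ATRA-treated cells, against 9.59, 9.62 and 9.67 in untreated cells, and rose 2.68-fold. ANXA1, which limits inflammation, read 8.74, 8.68 and 8.56 in ATRA-treated cells, against 10.61, 10.54 and 10.58 in untreated cells and was 3.78-fold lower. ANXA2, the partner of S100A10, read 5.9, 6.2 and 5.9 in ATRA-treated cells, against 7.59, 7.71 and 7.44 in untreated cells. Both partners in that pair were lower on all ATRA arrays. Without ATRA replicate 2 or any 1 untreated array the annexins that fell numbered 3, and those that rose numbered 2 or 3 without ATRA replicate 2 or 3 or any 1 untreated array.

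Of the 5 peptidylarginine deiminases, 3 rose and 0 fell. Beside PADI2, PADI4, which citrullinates histones in neutrophil extracellular traps, read 9.85, 9.39 and 9.69 in ATRA-treated cells, against 6.71, 6.63 and 6.65 in untreated cells. Its rise was 7.89-fold (adjusted p = 5.61e-11), and PADI3 changed by 0.69. Of 9 transglutaminases 3 rose, TGM2 beside TGM3 (1.26 ± 0.14) and TGM5 (0.55 ± 0.18). F13A1, the blood clotting member of the family, read 4.82, 4.81 and 4.86 in ATRA-treated cells, against 4.83, 5.03 and 5.01 in untreated cells, with no call.

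Of 17 CC chemokines 7 rose and 1 fell. CCL24, which attracts eosinophils, rose 23.6-fold. CCL2, which attracts monocytes, read 11.4, 10.84 and 11.51 in ATRA-treated cells, against 9.61, 9.55 and 9.5 in untreated cells and rose 3.24-fold. CCL22 (1.27), CCL20 (0.99) and CCL26 (0.98) rose too, and CCL5 fell, with 9.09, 8.99 and 9.61 in ATRA-treated cells, against 10.38, 10.54 and 10.41 in untreated cells. Of 16 CXC chemokines 5 rose and 0 fell (4 rose after quantile normalization, and 3 without ATRA replicate 1 or any 1 untreated array). CXCL8, the main neutrophil chemokine, read 9.4, 8.96 and 10.07 in ATRA-treated cells, against 8.03, 7.94 and 7.94 in untreated cells, a rise of 2.84-fold. CXCL10, an interferon-induced chemokine, read 8.09, 6.57 and 8.45 in ATRA-treated cells, against 6.02, 5.95 and 5.99 in untreated cells. Replicate 2 lay nearest the untreated arrays, and the gene was not called (1.72 ± 0.74).

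In the TNF superfamily 8 of 23 ligands and receptors rose and 6 fell. As deposited, the share that fell is near the 24.4% over all genes. TNF, the inflammatory cytokine, read 7.54, 7.45 and 7.64 in ATRA-treated cells, against 9.3, 9.29 and 9.29 in untreated cells, and was 3.36-fold lower (adjusted p = 6.41e-06). TNFSF10, a ligand that triggers apoptosis, read 6.57, 6.08 and 6.05 in ATRA-treated cells, against 7.73, 7.96 and 7.97 in untreated cells and was 3.15-fold lower. The receptors TNFRSF14 (1.61) and TNFRSF1B (1.27) rose, and TNFRSF21 (−1.37) and the death receptor FAS (−0.81) fell. The number that rose was 4 without ATRA replicate 3 or any 1 untreated array.

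Most interferon response genes rose, with a wide spread between ATRA arrays. Interferons induce them through STAT and IRF factors. Of 31 measured, 23 rose and 0 fell (24 and 0 after quantile normalization), with a median of 1.08. Averaged over the list, ATRA replicates 1, 2 and 3 lay 1.67, 0.58 and 1.55 above the untreated mean, while the untreated arrays lay within −0.05 and 0.03 of it. OAS3, an antiviral synthetase, read 9.86, 7.94 and 9.65 in ATRA-treated cells, against 5.85, 6.04 and 6.01 in untreated cells, and rose 9.08-fold (adjusted p = 1.09e-05). IFIT5, which binds foreign RNA, read 7.57, 5.91 and 7.63 in ATRA-treated cells, against 4.13, 4.32 and 4.26 in untreated cells, and OAS1 9.81, 7.88 and 9.68 in ATRA-treated cells, against 6.74, 6.7 and 6.73 in untreated cells. Each ATRA array was above the untreated ones, with replicate 2 lowest of the ATRA arrays in these 3. IRF1, a transcription factor induced by interferon and by retinoic acid, read 10.01, 9.58 and 9.46 in ATRA-treated cells, against 7.03, 7.11 and 7.1 in untreated cells and did not share that dip.

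Promoters of interferon response genes are shown for the element that IRF and STAT complexes bind. The search was for GAAA, any 2 bases and GAAA again, on both strands. Of all 27305 genes with a window 4.38% hold it (3.57% of windows), and of the 24 measured interferon genes with a window 16 do (66.7%), 12 of 17 called higher and 4 of 7 not called. Each line is the 150 bases before the start on the gene's strand (GRCh38.p14, RefSeq), with matches in capitals. OAS3 is at chr12:112938324-112938473 (plus strand), IFIT5 at chr10:89414418-89414567 (plus strand), IFIT1 at chr10:89392473-89392622 (plus strand) and IFI6 at chr1:27672193-27672342 (minus strand), of which IFIT1 (log2 change 1.69) and IFI6 (2.11) were named after their values were seen.
OAS3: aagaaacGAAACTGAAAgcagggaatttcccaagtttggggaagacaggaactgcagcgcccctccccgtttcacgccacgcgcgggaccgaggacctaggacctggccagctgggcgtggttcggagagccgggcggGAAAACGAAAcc
IFIT5: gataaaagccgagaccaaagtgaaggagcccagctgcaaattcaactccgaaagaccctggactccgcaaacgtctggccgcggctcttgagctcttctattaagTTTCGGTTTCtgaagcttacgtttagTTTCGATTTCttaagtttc
IFIT1: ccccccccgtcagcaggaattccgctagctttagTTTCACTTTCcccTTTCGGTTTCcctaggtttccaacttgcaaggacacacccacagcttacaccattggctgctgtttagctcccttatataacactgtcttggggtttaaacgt
IFI6: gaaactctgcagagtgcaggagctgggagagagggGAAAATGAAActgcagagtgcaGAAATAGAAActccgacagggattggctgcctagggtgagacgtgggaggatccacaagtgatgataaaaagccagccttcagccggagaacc
Each stretch holds 2 copies, at distances from the start that differ between genes.

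The interferon-inducible parts of antigen processing rose with less spread between ATRA arrays. Immunoproteasomes cut proteins into peptides, which TAP pumps carry to class I molecules. Of 14 genes 10 rose and 1 fell (12 and 1 after quantile normalization), with a median of 1.03. The catalytic subunit PSMB9 read 9.67, 9.63 and 9.92 in ATRA-treated cells, against 6.52, 6.41 and 6.28 in untreated cells, and PSMB8 10.02, 10.03 and 10.05 in ATRA-treated cells, against 7.04, 6.81 and 6.84 in untreated cells. They rose 10.1-fold and 8.79-fold (adjusted p = 5.58e-11 and 4.47e-11), and replicate 2 did not stand apart. PSMB10, the last of the 3 catalytic subunits, rose 2.97-fold, the peptide trimmer ERAP2 3.78-fold, TAP1 3.07-fold and B2M, the class I light chain, 2.14-fold. CALR, the chaperone calreticulin, fell, with 11.56, 11.73 and 11.16 in ATRA-treated cells, against 12.35, 12.34 and 12.34 in untreated cells.

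Subunits of the constitutive proteasome moved the other way in part. Of 24 measured, 3 rose and 11 fell (6 and 10 after quantile normalization, and 1 rose without replicate 1 of either group). PSMB6, the subunit whose place PSMB9 takes, read 9.2, 9.62 and 9.01 in ATRA-treated cells, against 11.28, 11.17 and 11.26 in untreated cells and was 3.89-fold lower (adjusted p = 3.45e-07). PSMC4, an ATPase of the cap, read 8.8, 8.72 and 8.66 in ATRA-treated cells, against 10.16, 10.14 and 10.25 in untreated cells. Outer ring subunits differed, PSMA4 at 0.39 and PSMA2 at −1.30.

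Of 18 NF-kB subunits and inhibitors 5 rose and 2 fell (7 and 1 after quantile normalization). TNIP1 and TNIP2, which restrain the pathway, changed by 1.28 ± 0.17 and 1.07 ± 0.10, and the subunit NFKB2 by 1.10 ± 0.40. The number that rose was 2 without ATRA replicate 1 or 3 and 3 without untreated replicate 1 or 2, and 1 gene fell without ATRA replicate 2 or any 1 untreated array. Of 17 inflammasome and interleukin-1 family genes 5 rose and 1 fell (4 rose after quantile normalization, and 2 fell without ATRA replicate 1). NLRC4, a sensor of bacterial flagellin, read 8.85, 7.11 and 8.16 in ATRA-treated cells, against 5.2, 5.27 and 5.32 in untreated cells and rose 6.85-fold, while NAIP, which detects flagellin for it, was 2.36-fold lower. CASP1, the protease of the complex, rose 2.4-fold.

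Complement genes, which mark targets for uptake, also differed between ATRA arrays. Of 13 measured 4 rose and 0 fell, while 7 rose without ATRA replicate 2 and 1 fell without ATRA replicate 1. CFP, the properdin that stabilises the C3 convertase, read 9.89, 9.05 and 9.55 in ATRA-treated cells, against 7.27, 7.23 and 7.3 in untreated cells, and rose 4.69-fold (adjusted p = 9.47e-08). C3 itself read 9.8, 6.89 and 9.75 in ATRA-treated cells, against 7.65, 7.53 and 7.57 in untreated cells. CR1, a receptor for its fragments, read 8.42, 5.85 and 8.45 in ATRA-treated cells, against 6.47, 6.48 and 6.35 in untreated cells. In both, replicates 1 and 3 were about 2 log2 units above the untreated arrays and replicate 2 was below them, and neither was called.

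**Figure D4:**
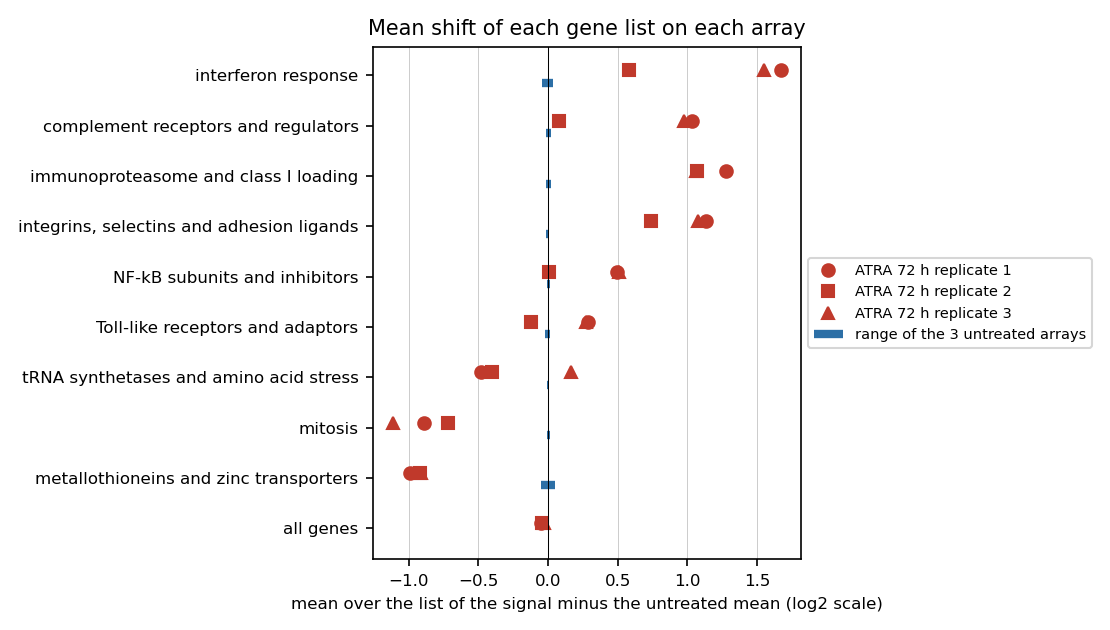
Mean over each list's genes of the signal minus the untreated mean (log2 scale), for the 3 ATRA 72 h arrays (circle, replicate 1; square, replicate 2; triangle, replicate 3) and the range of the 3 untreated arrays (blue bar). Replicate 2 lies at 0.58 for interferon response genes, against 1.67 and 1.55, and at 0.08 for complement genes, against 1.03 and 0.97, and replicate 3 lies at 0.16 for tRNA synthetases, against −0.48 and −0.40.

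Most genes of ribosome biogenesis and of mitochondrial ribosomes fell. Of 23 ribosome biogenesis genes 0 rose and 17 fell (1 and 15 after quantile normalization), with a median of −0.95. POLR1B, a core subunit of the RNA polymerase that makes ribosomal RNA, read 7.47, 7.87 and 7.55 in ATRA-treated cells, against 9.66, 9.7 and 9.71 in untreated cells, and was 4.17-fold lower (adjusted p = 3.3e-07). NOB1, which trims the small subunit's RNA, read 8.7, 8.83 and 8.8 in ATRA-treated cells, against 10.43, 10.38 and 10.55 in untreated cells. Of 26 mitochondrial ribosomal proteins 0 rose and 19 fell (3 and 16 after quantile normalization). MRPS2 read 8.13, 8.4 and 8.17 in ATRA-treated cells, against 9.92, 9.98 and 9.91 in untreated cells and MRPL15 7.84, 7.91 and 7.76 in ATRA-treated cells, against 9.44, 9.45 and 9.35 in untreated cells. In both genes the lowest untreated array lay over 1 log2 unit above the highest ATRA array.

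Of 23 nucleotide synthesis genes 1 rose and 16 fell (12 fell after quantile normalization). Several that fell belong to purine synthesis: PRPS2, which supplies its sugar phosphate, read 8.21, 8.23 and 7.18 in ATRA-treated cells, against 9.81, 9.78 and 9.9 in untreated cells, and PPAT, its first committed enzyme, 8.35, 8.92 and 8.74 in ATRA-treated cells, against 10.07, 10.03 and 10.02 in untreated cells. ADSL changed by −1.45, PAICS by −1.13 and GMPS by −1.11. TK1, a thymidine salvage enzyme, rose (0.53), a call lost without ATRA replicate 1 or 2 or any 1 untreated array. Of 29 tRNA synthetases and amino acid stress genes 1 rose and 7 fell (4 fell after quantile normalization, and 2 rose without ATRA replicate 1). The share that fell is near the 24.4% over all genes, and after quantile normalization below the 18.7% over all genes. HARS1, for histidine, read 9.27, 9.36 and 8.84 in ATRA-treated cells, against 10.74, 10.77 and 10.73 in untreated cells. Over the list, ATRA replicates 1 and 2 lay 0.48 and 0.40 below the untreated mean and replicate 3 lay 0.16 above it.

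Of 22 heat shock proteins and chaperonins 0 rose and 19 fell (1 and 13 after quantile normalization, and 10 fell without ATRA replicate 3). HSPB1, a small heat shock protein, read 8.51, 8.98 and 8.35 in ATRA-treated cells, against 10.45, 10.52 and 10.36 in untreated cells and was 3.56-fold lower. HSPA8, the constitutive member of the HSP70 family, changed by −0.84 ± 0.24. These genes are bright, with a mean level of 10.30 to 10.72 on ATRA arrays and 11.11 to 11.13 on untreated arrays, against 6.80 to 6.83 and 6.85 to 6.86 over all genes. The brightness shift described above falls on genes of such levels, and its part in these calls was not tested. Other lists with falls are bright too. Median untreated signals were 10.14 for the constitutive proteasome, 10.41 for the respiratory chain and 9.27 for glutathione and peroxide defence, against 6.64 over all genes. They were 9.89 for mitosis, 9.62 for DNA replication, 9.84 for ribosome biogenesis, 9.7 for mitochondrial ribosomal proteins and 10.04 for nucleotide synthesis. Median changes of these last lists were −0.90, −0.61, −0.95, −0.76 and −0.83 as deposited. After quantile normalization they were −0.72, −0.32, −0.68, −0.53 and −0.54. Falls in these lists were not tested against probe sets of like brightness.

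Energy metabolism changed within its pathways. Of 22 respiratory chain and ATP synthase genes 6 rose and 11 fell (7 and 5 after quantile normalization, and 3 rose without ATRA replicate 2). The share of falls after quantile normalization is near the 18.7% over all genes. NDUFV2, a subunit of complex I, was 2.02-fold lower, SDHC and SDHD of complex II changed by −0.82 and −0.74, and CYC1 of complex III by 0.41. Of 25 glycolysis and pentose phosphate genes 9 rose and 5 fell (11 and 3 after quantile normalization, and 3 fell without ATRA replicate 1). HK3, the hexokinase of white blood cells, read 8.62, 8.25 and 8.17 in ATRA-treated cells, against 5.54, 5.68 and 5.54 in untreated cells. It rose 6.77-fold (adjusted p = 3.46e-09), and HK2, its relative, fell, with 9.07, 9.51 and 9.48 in ATRA-treated cells, against 10.09, 10.11 and 10.01 in untreated cells. Likewise the glucose transporter SLC2A3 rose (1.25 ± 0.45) and SLC2A1 fell (−0.55 ± 0.19), the fall with no call after quantile normalization. The transketolase TKT rose 1.95-fold and PFKFB4, which sets the pace of glycolysis, 3.47-fold.

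Of 21 cholesterol and fatty acid genes 5 rose and 1 fell (7 and 0 after quantile normalization). As deposited, the share that rose is near the 19.6% over all genes. ABCA1, which exports cholesterol, read 9.09, 7.97 and 8.85 in ATRA-treated cells, against 6.91, 6.91 and 6.95 in untreated cells, and the regulator SREBF1 10.1, 9.83 and 9.73 in ATRA-treated cells, against 8.35, 8.22 and 8.44 in untreated cells. They rose 3.28-fold and 2.93-fold. SREBF2 (0.80), INSIG1 (0.91) and MVD (0.92) rose too. SC5D fell (−0.60) only as deposited, and not without ATRA replicate 2 or 3 or any 1 untreated array.

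Metallothioneins are small proteins that bind zinc and copper, and 6 of 9 measured fell. Of 15 metallothioneins, zinc transporters and their regulator, 2 rose and 9 fell (1 and 8 after quantile normalization), with a median of −1.18. MT2A read 9.91, 10.11 and 9.93 in ATRA-treated cells, against 11.93, 12.01 and 11.97 in untreated cells and was 3.96-fold lower (adjusted p = 1.99e-07). MT1F read 8.03, 7.79 and 7.92 in ATRA-treated cells, against 9.96, 10 and 10.13 in untreated cells, and MT1X 8, 8.09 and 8.02 in ATRA-treated cells, against 9.81, 9.83 and 9.78 in untreated cells. MT1G (−1.55), MT1H (−1.18) and MT1B (−0.61, no call after quantile normalization) fell too, MT1E (−0.18) and MT1M (−0.13) were not called, and these genes are near copies of each other, so their probe sets may share signal. The importer SLC39A14 was 5.31-fold lower, with 6.94, 6.94 and 6.53 in ATRA-treated cells, against 9.19, 9.2 and 9.25 in untreated cells. SLC39A8 and SLC39A10, other importers, both changed by −1.18, whereas the exporter SLC30A1 and MTF1, the factor that senses zinc, were not called (−0.29 ± 0.13 and −0.43 ± 0.19). MT3 (0.43) and SLC30A4 (0.48) rose, with 1 left without ATRA replicate 1 or untreated replicate 2 and 0 without ATRA replicate 3 or untreated replicate 1 or 3.

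The promoters of MT2A and MT1X are shown for the core of the metal response element, to which MTF1 binds. The letters TGCNCNC, on both strands, are common, in 55.9% of all windows and 59.4% of genes with a window. At least 4 copies are found in 3.52% of these genes (2.94% of windows) and in all 4 measured metallothionein genes that have a window, with 8 copies in MT2A and in MT1H, 5 in MT1B and 4 in MT1X. Each line is the 150 bases before the start, plus strand (GRCh38.p14, RefSeq), MT2A at chr16:56608434-56608583 and MT1X at chr16:56682320-56682469, with matches in capitals.
MT2A: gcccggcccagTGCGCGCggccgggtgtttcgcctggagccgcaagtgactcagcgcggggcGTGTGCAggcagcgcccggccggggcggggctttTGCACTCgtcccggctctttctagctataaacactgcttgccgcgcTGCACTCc
MT1X: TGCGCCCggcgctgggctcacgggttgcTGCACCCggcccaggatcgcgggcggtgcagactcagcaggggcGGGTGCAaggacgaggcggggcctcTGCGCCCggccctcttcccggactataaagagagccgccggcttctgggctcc
Both stretches hold 4 copies.

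Of 22 glutathione and peroxide defence genes 1 rose and 10 fell (2 and 5 after quantile normalization, and 2 rose without ATRA replicate 2). The share of falls after quantile normalization is near the 18.7% over all genes. Beside NQO1, GCLM, which limits glutathione synthesis, read 6.1, 5.94 and 6.02 in ATRA-treated cells, against 7.29, 7.29 and 7.17 in untreated cells and was 2.35-fold lower. CAT, the catalase, was 2-fold lower, and GPX1 changed by −0.96 and PRDX1 by −1.29 ± 0.41. PRDX1, a peroxiredoxin, read 9.58, 10.01 and 8.75 in ATRA-treated cells, against 10.72, 10.79 and 10.7 in untreated cells, with ATRA replicate 3 lowest and no call after quantile normalization.

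Of 29 lysosomal genes 13 rose and 5 fell (4 fell after quantile normalization). CTSD, an aspartic protease, read 12.51, 12.01 and 12.38 in ATRA-treated cells, against 10.26, 10.28 and 10.32 in untreated cells, and CTSS, a protease of antigen processing, 9.33, 8.68 and 9.18 in ATRA-treated cells, against 7.02, 7.08 and 7.04 in untreated cells. They rose 4.04-fold and 4.05-fold. GUSB, the glucuronidase, rose 3.07-fold. CTSH read 8.44, 7.98 and 8.61 in ATRA-treated cells, against 10.17, 10.24 and 10.24 in untreated cells and was 3.66-fold lower, so members of 1 protease family moved apart. LAMP1, a membrane protein of lysosomes, fell (−0.61).

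Of 37 histone- and DNA-modifying enzymes 2 rose and 21 fell (4 and 15 after quantile normalization, and 1 rose without ATRA replicate 1 or any 1 untreated array). DNMT3B, a DNA methyltransferase, read 6.43, 6.73 and 6.54 in ATRA-treated cells, against 8.36, 8.22 and 8.16 in untreated cells, and was 3.2-fold lower (adjusted p = 3.61e-06). Its relative DNMT3A rose, with 7.84, 7.64 and 7.8 in ATRA-treated cells, against 7.29, 7.22 and 7.33 in untreated cells. KMT2A (−1.27), SUV39H2 (−1.29), KDM6A (−1.20) and TET1 (−1.14) fell. Of 22 genes for the clearance of dying cells 7 rose and 3 fell (6 and 4 after quantile normalization, and 4 rose without untreated replicate 2). MERTK, a receptor for dying cells, read 9.82, 8.54 and 10.03 in ATRA-treated cells, against 6.71, 6.8 and 6.71 in untreated cells and rose 6.6-fold, with replicate 2 lowest. STAB1, another such receptor, was 2.84-fold lower and ELMO1, which helps engulfment, 2.17-fold.

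**Figure D5:**
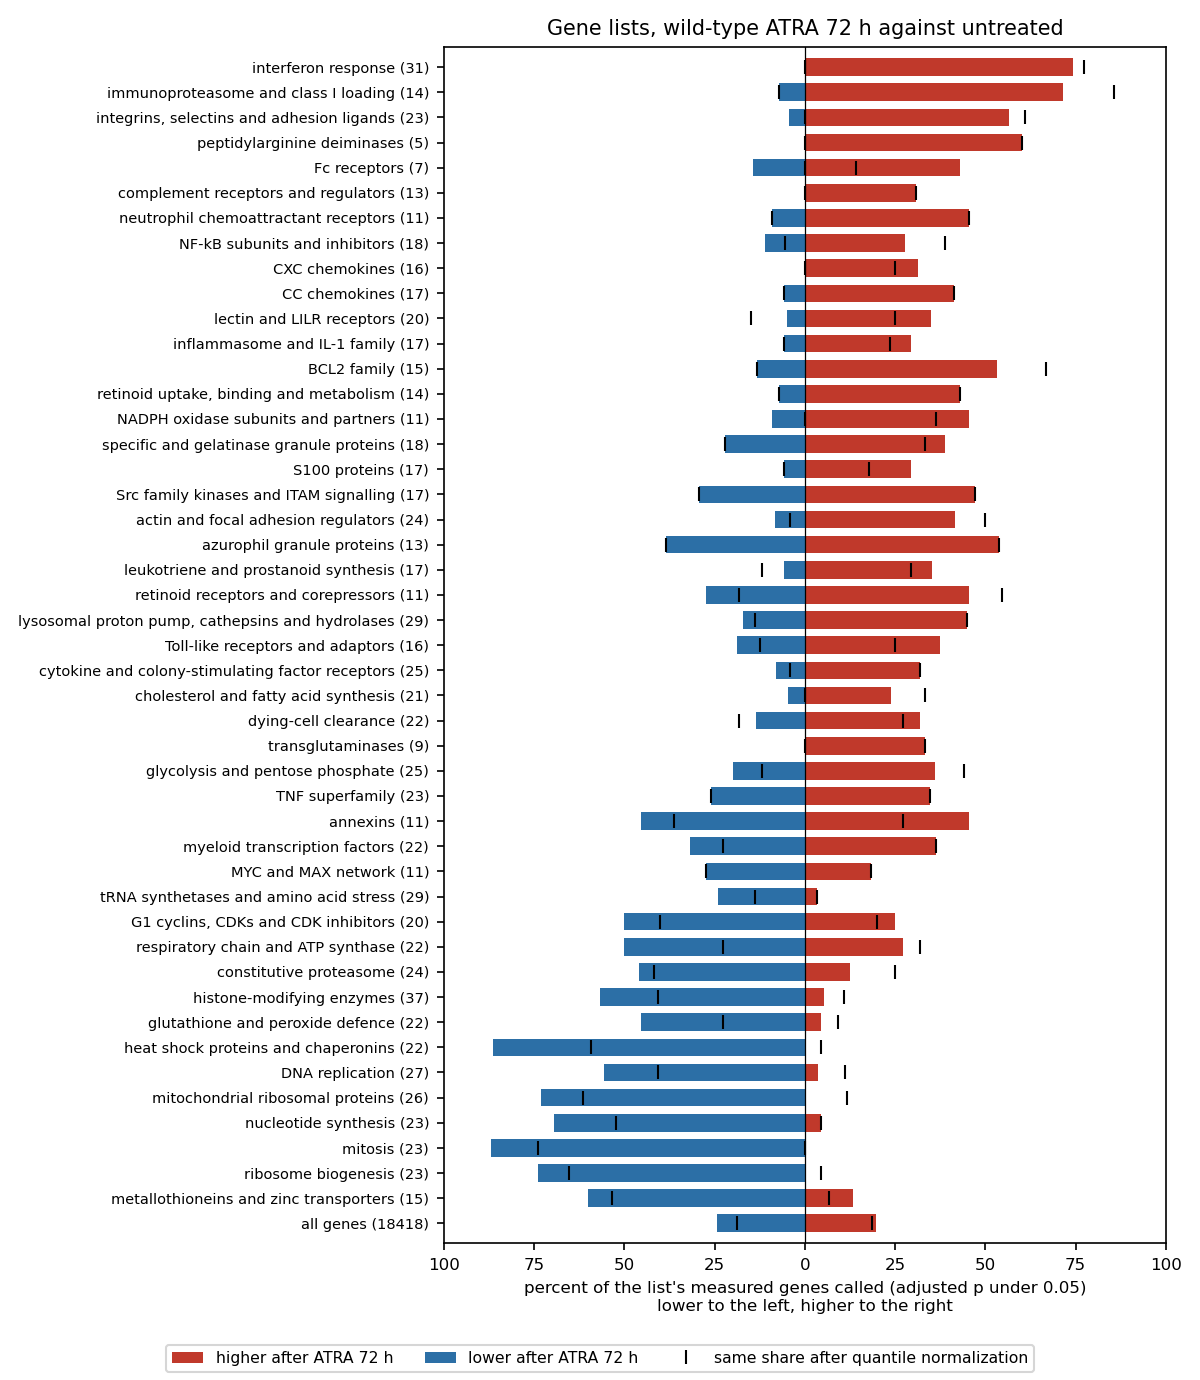
Percent of each list's measured genes (number in brackets) that were higher (red, right) or lower (blue, left) after ATRA 72 h at an adjusted p under 0.05, ordered by median change, with ticks at the shares after quantile normalization and all genes at the bottom. Interferon response and immunoproteasome genes lie at the top with 23 of 31 and 10 of 14 higher, and mitosis genes near the bottom with 20 of 23 lower, against 19.6% higher and 24.4% lower over all genes.

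Markers of mature blood cells changed unevenly. Of 9 neutrophil markers 4 rose and 0 fell, and the list's mean level was 6.30 to 6.51 on the ATRA arrays and 5.46 to 5.55 on the untreated ones. CSF3R, CXCR2, FPR1 and LTF rose, while the surface and enzyme markers ALPL (0.17 ± 0.16), MME (0.44 ± 0.19) and CEACAM8 (0.38 ± 0.16) were not called. After ATRA the levels of ALPL, MME and CEACAM8 were at the percentiles 44.8, 20.3 and 39.3. The granule gene CAMP and S100A12 were not called either. The number that rose was 7 without ATRA replicate 1 and 2 without replicate 3. Of 13 monocyte and macrophage markers 7 rose and 0 fell (6 rose after quantile normalization, and 4 without ATRA replicate 3 or untreated replicate 2 or 3), at mean levels of 6.08 to 6.32 after ATRA and 5.69 to 5.81 untreated. VSIG4 read 7.01, 5.48 and 6.63 in ATRA-treated cells, against 5.62, 5.3 and 5.26 in untreated cells, CD68 changed by 0.85 and SIGLEC1 by 0.76, all under 2-fold.

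Of 11 eosinophil, basophil and mast cell markers 2 rose and 4 fell (1 and 3 after quantile normalization, and 1 rose without ATRA replicate 1 or untreated replicate 1 or 2), at mean levels of 5.48 to 5.74 after ATRA and 6.17 to 6.25 untreated. The granule genes PRG2 and EPX and the histamine enzyme HDC fell by 3.72, 1.72 and 3.63 on the log2 scale. CLC, the Charcot-Leyden crystal protein, rose, with 6.35, 4.56 and 5.45 in ATRA-treated cells, against 3.95, 4.03 and 4.04 in untreated cells. Of 8 erythroid markers 1 rose and 1 fell (2 and 0 after quantile normalization, at 6.41 to 6.64 after ATRA and 6.27 to 6.35 untreated). TFRC, the transferrin receptor of dividing cells, fell (−0.68 ± 0.26), a call lost without ATRA replicate 3 or any 1 untreated array. ALAS2 rose (0.60 ± 0.17), and erythroid rises numbered 2 without ATRA replicate 1 or 2 and 0 without replicate 3.

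Of 7 megakaryocyte markers 3 rose, SELP by 2.24 and ITGA2B and PPBP by less (0.35 and 0.55), at mean levels of 5.71 to 5.84 after ATRA and 5.15 to 5.25 untreated (2 rose after quantile normalization, and 1 without replicate 1 of either group or untreated replicate 3). Of 11 T and NK cell markers 3 rose and 1 fell (2 and 1 after quantile normalization, and 0 fell without ATRA replicate 3), at 6.37 to 6.68 after ATRA and 6.24 to 6.29 untreated. NKG7, a granule protein of cytotoxic cells, read 11.62, 11.15 and 11.73 in ATRA-treated cells, against 10.37, 10.43 and 10.49 in untreated cells. CD4 (0.73 ± 0.13) and the T cell receptor chain CD3E (0.49 ± 0.17) rose as well, and CD3D, another chain, fell (−0.73 ± 0.21). Of 6 B cell markers 1 rose, CD79A (0.85 ± 0.13), and 1 fell, CD79B (−0.73 ± 0.15), at 5.66 to 5.90 after ATRA and 5.46 to 5.50 untreated (3 rose without ATRA replicate 3). The part of these markers in the other results was not tested.

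The later of the ATRA times was also set against the earlier one. Of 33297 probe sets 0 (0%) were called in either direction by limma, with 1952 at an unadjusted p under 0.05 and a median difference of 0.01. TGM2 read 12.54, 12.19 and 12.39 at 72 h, against 12.34, 12.06 and 12.4 at 48 h, a difference of 0.11 ± 0.19. Genes with the smallest p, all with adjusted p of 0.353 to 0.496, averaged 4.06 to 5.86 over the 18 arrays. RAG1, a recombinase of lymphocytes, read 4.6, 4.52 and 4.44 at 72 h, against 3.92, 3.92 and 3.72 at 48 h (0.67 ± 0.14). EFNA1, a ligand of Eph receptors, read 4.51, 4.51 and 4.5 at 72 h, against 5.06, 5.76 and 5.52 at 48 h (−0.94 ± 0.19). BEST2 (0.51 ± 0.11), KCNK1 (0.70 ± 0.16) and DYNLT4 (0.69 ± 0.17) were the others higher at 72 h, and AKR1C3 (−1.05 ± 0.22), EPYC (−0.78 ± 0.17) and PCDHB16 (−0.69 ± 0.15) the others lower. LAMB3, of which the ATRA arrays spread widely, read 9.67, 9.14 and 10.37 at 72 h, against 7.96, 8.56 and 10.36 at 48 h. Its difference was 0.77 ± 0.59, and the arrays of the 2 times overlap. Without replicate 3 of the 48 h arrays 7 probe sets were called, and without replicate 2 of the 72 h arrays 1, a probe set with no gene name here.

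The line labelled TG2 knockout had 13996 calls of its own at 72 h, and the difference of the 2 lines' responses, knockout minus wild-type, gave 0 calls of 33297 (0%), with 1553 at an unadjusted p under 0.05. The 2 responses have separate untreated controls. TGM2, the targeted gene, read 11.61, 10.87 and 11.25 in the knockout line after 72 h of ATRA, against 6.3, 6.51 and 6.36 in the untreated knockout line. It rose by 4.85 on the log2 scale there and by 5.95 in wild-type cells, a difference of −1.09 ± 0.27 (adjusted p = 0.98). Which part of TGM2 was edited is not given in the sources used here, so this transcript signal does not check the label. RAB27B, a GTPase of granule release, changed by −1.49 in the knockout line and −2.78 in wild-type cells (1.29 ± 0.22, adjusted p = 0.253). LGALS3BP, a secreted glycoprotein, changed by 1.14 in the knockout line and 2.11 in wild-type cells (−0.97 ± 0.17, adjusted p = 0.315). The other genes of smallest p were RPF2 (0.77 ± 0.15), DNAJC19 (0.65 ± 0.15) and MTX2 (1.03 ± 0.24) on the positive side. On the negative side were CCL24 (−1.40 ± 0.32), POR (−0.78 ± 0.18) and LOXL3 (−0.83 ± 0.20), all with adjusted p of 0.649 or 0.98. When only the 4 compared groups were fitted, 3 probe sets were called, none with a gene name here. Without replicate 2 of the knockout 72 h, knockout untreated or wild-type 72 h arrays 1 was called, in the first case ACSS2 (−1.37), named after its value was seen. In the knockout line too the second 72 h array was lowest for C3, which read 9.41, 6.57 and 8.38 after ATRA, against 7.59, 7.59 and 7.54 in untreated knockout cells. This was not particular to C3. Among the 12 highest changes of wild-type cells, the second 72 h array was lowest in both lines for every gene but CCL24. S100A8, for example, read 9.16, 7.5 and 8.18 in the knockout line after ATRA. Why same-numbered ATRA arrays go together was not tested.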

How the data were processed

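NB4 cells were read on 18 Affymetrix whole-transcript arrays, 3 per group, and 6 arrays make the main comparison. The deposited log2 values, 1 per probe set and array, were used as the authors gave them; the background correction, the normalization and the log base were not stated in the labels or the files, and the base was taken from the range. RNA was labelled with biotin, per the labels' protocols. Group labels come from the sample titles. The titles call the replicates biological without saying whether cultures, passages or days differed, and p-values measure the spread between these arrays.

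Of 33297 probe sets, 19460 are annotated to 1 gene, 1754 to several and 12083 to none, by the platform's table. The numbers of the probe sets named here for PCGF6, RPF2 and DNAJC19 lie among those of genes on other chromosomes. Where their probes map was not checked, so these signals may not be of the genes named. A 1-factor model of all 6 groups was fitted in limma 3.58.1 (R 4.3.3; lmFit, eBayes with trend), tested on simulated data first, with Benjamini-Hochberg adjustment over all probe sets. A call is a 2-sided adjusted p under 0.05. A gene in a list is read by its single-gene probe set of the highest mean. Every adjusted p in the text is from limma. Array signals carry no counts, so the number of arrays limits the precision.

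The members and the 53 lists were chosen with earlier results of these data known. Of 992 list genes 913 have a probe set of their own. The text names TGM2, the 12 highest and the 12 lowest changes, the 4 smallest p in each direction for the contrasts with 48 h and with the knockout line, and up to 5 called members per list and direction, or any member of lists of up to 16 measured genes. Alternatives were quantile normalization, median centring, brighter probe sets only, probe sets of 1 gene only, eBayes without a trend, robust eBayes, array weights, the compared arrays only, a mean over a gene's probe sets, the replicate number as a block and leaving out each array. Promoters come from RefSeq windows (GRCh38.p14). Same-numbered arrays of the wild-type ATRA 72 h and untreated groups did not deviate together (r = −0.033, 0.01 and −0.026 for replicates 1, 2 and 3), so the numbers were not taken as pairs. Untreated arrays vary little (median SD 0.0757), and this check does not cover pairing between the ATRA groups of the 2 lines. With the replicate number as a block the difference between the lines also gave 0 calls.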

Additional observations from a re-analysis of the deposited data

Results flagged for a closer look

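Of 913 measured list genes, 3 had ATRA 72 h arrays without overlap with the untreated arrays in each line, but in opposite directions. Arrays were not paired, so this compares groups of arrays. In wild-type cells alone, 63.1% of all genes showed groups without overlap. How many of all genes show such opposite directions was not counted. None of the 3 differences between the lines was called. CAPG, which caps actin filaments, changed by −0.47 on the log2 scale in the knockout line and by 0.39 in wild-type cells, a difference of −0.86. NARS1, the asparagine tRNA synthetase, changed by 0.317 in the knockout line and by −0.19 in wild-type cells, a difference of 0.507. MFGE8, a bridge between dying cells and phagocytes, changed by −0.17 in the knockout line and by 0.317 in wild-type cells, a difference of −0.487. In limma's test of the difference their unadjusted p-values were 0.00473, 0.00185 and 0.00429, and the adjusted p was 1 for each.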

How the results depend on the processing

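The 40 named results (TGM2, the 12 highest, the 12 lowest and the genes of the other contrasts) kept their direction and their side of the threshold in 640 of 640 alternative values. They were chosen from these same values by size of change or smallest p, so this does not measure how stable other genes are. The 14666 called probe sets became 9601 with brighter probe sets only (38.4% of them higher, against 52.4%) and 8921 with probe sets of 1 gene only, where fewer were tested, 11869 after quantile normalization and 17641 with array weights per group. Leaving out 1 array gave 11492 to 13367. At least 2-fold calls, 5272, became 3262 and 2485 under the same 2 filters and 4911 to 5325 without 1 array. The 8107 called genes became 6428 to 7481 without 1 array. Leaving out 1 array gave 0 to 7 calls between 72 and 48 h, against 0, and 0 to 1 for the difference between the lines, against 0, which became 3 when only the compared arrays were fitted. At an unadjusted p under 0.05 these contrasts held 654 to 2802 and 814 to 2781 probe sets over all alternatives. With the replicate block 14974 probe sets were called. Of 525 called list genes 434 kept call and direction after quantile normalization, which added 43, and 436 to 476 without 1 array. Counts per list stayed within 1.5 times in 1372 values and moved further in 218. The cause was not tested where no filter shows it. The number of arrays and the wider spread among ATRA arrays limit small changes.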
